A study of Mus musculus with 88 samples.

Results

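Fast signalling in the cortex runs through receptors that are themselves ion channels, and the 27 genes described here encode subunits of the main excitatory and inhibitory ones. They were taken from the expression table of all genes by name, as the Gria, Grin, Grik, Grid and Gabr (a, b, d, e, g and q) symbols with a mean of at least 1 CPM (reads of a gene scaled to the same total in every library), and comprise 18 ionotropic glutamate receptor subunits and 9 GABA-A receptor subunits among 14086 genes tested. Expression did not enter the choice beyond that minimum.

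mRNA was sequenced from the frontal cortex of 88 mice with a mean age of 6.5 months, 1 library per mouse, in 8 genotypes. All mice carried 2 copies of human APOE4 or APOE3 in place of mouse Apoe, by targeted replacement at the mouse locus, on a C57BL/6 background. Mice called APP also carried the APP/PS1dE9 transgenes, human amyloid precursor protein with the Swedish mutation and a human presenilin lacking an exon (a growth note in the labels names the APP23 line instead), and mice called Trem2ko were homozygous for a germline knockout allele of Trem2, a receptor of microglia, in all cells. The groups were APP/E4 (n = 14), APP/E4/Trem2ko (n = 16), APP/E3/Trem2ko (n = 14), APP/E3 (n = 14), E4 (n = 6), E4/Trem2ko (n = 8), E3/Trem2ko (n = 8) and E3 (n = 8), with equal numbers of females and males except in E4 (4 females and 2 males). The comparisons ask how APOE isoform, Trem2 loss and amyloid transgenes, alone or together, relate to receptor subunit mRNA.

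Glutamate opens 3 classes of channel that are named after drugs that act on them. AMPA receptors (Gria genes) carry most of the fast excitatory current, NMDA receptors (Grin genes) admit calcium and need an obligatory subunit from Grin1 with partners from the other Grin genes, and kainate receptors (Grik genes) adjust transmission on both sides of the synapse, while the delta subunits (Grid genes) bind synaptic organisers and belong to the same family. GABA-A receptors are pentameric chloride channels, mostly built of alpha, beta and gamma subunits at synapses, with the delta subunit replacing gamma in receptors outside synapses.

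The stretches before Gabra4, Gabrb2 and Gabra3 are shown because these 3 genes carry the calls made outside the comparison of APP/E4 with APP/E3. Each line gives bases before the RefSeq transcription start in GRCm38.p6, 5′ to 3′ on the gene's own strand, with GGGCGG and TATAAA, on either strand, in capitals. They are chr5:71658364-71658558 on the minus strand for Gabra4, chr11:42420190-42420439 on the plus strand for Gabrb2 and chrX:72656920-72657169 on the minus strand for Gabra3. GENCODE, from which the gene positions below come, starts Gabrb2 earlier, at 42419757, so its stretch lies inside the gene by that annotation. For Gabra4 the stretch ends where an annotated exon of the neighbouring Gabrb1 begins.
Gabra4: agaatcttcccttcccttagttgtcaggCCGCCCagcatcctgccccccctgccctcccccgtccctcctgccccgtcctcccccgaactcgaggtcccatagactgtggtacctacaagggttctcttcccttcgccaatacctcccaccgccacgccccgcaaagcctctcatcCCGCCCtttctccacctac
Gabrb2: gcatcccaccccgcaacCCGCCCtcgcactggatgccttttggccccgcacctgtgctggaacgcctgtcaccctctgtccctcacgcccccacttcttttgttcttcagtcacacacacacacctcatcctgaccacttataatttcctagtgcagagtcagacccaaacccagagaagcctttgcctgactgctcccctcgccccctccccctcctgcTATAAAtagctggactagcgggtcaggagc
Gabra3: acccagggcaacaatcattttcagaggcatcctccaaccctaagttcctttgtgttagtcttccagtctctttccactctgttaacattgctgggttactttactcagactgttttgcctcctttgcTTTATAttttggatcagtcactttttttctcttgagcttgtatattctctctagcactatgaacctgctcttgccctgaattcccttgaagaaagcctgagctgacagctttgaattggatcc

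Gabra4 has GGGCGG at 2 places in its stretch, Gabrb2 has 1 GGGCGG and 1 TATAAA, and Gabra3 has 1 TATAAA. The starts of Gabra4 and Gabrb1 are 387 bases apart here, while by GENCODE they lie nearer, at 71658308 and 71658113. The genes run in opposite directions through each other's first bases, so without strand information reads from that overlap cannot be told apart. For 18 of the subunit genes 22 promoters were listed. GGGCGG, the core of the Sp1 motif, was found in 8 of the 22, and in 32.7% of all 32851 promoters, each searched over 250 bases. TATAAA was found in 4 of the 22 (3 genes), against 12.4% of all promoters, and the cAMP response motif TGACGTCA in 0 of the 22, against 1.55%. GC content was 63.6% in the Gabra4 stretch, 58.8% in that of Gabrb2 and 42.4% in that of Gabra3, and the median over all promoters was 52.4%.

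Libraries held 41.3 to 95.5 M counted reads, with a median of 49.8 M. Trem2 medians were 1.81 to 2.19 CPM in the Trem2ko genotypes and 9.43 to 14.6 CPM in the others, and App medians were 5040 to 5888 CPM in APP genotypes and 2161 to 2374 CPM in the rest, as the labels state. Cortical neuron markers were abundant in every library, while striatal neuron markers, of which cortex should hold little, summed to between 210 and 3367 CPM. Mouse E3/Trem2ko replicate 1 stood apart from its group, with 468 CPM of striatal markers against 225 to 298 CPM in the other 7, 220 CPM of granule neuron markers against a median of 132 CPM, and 1367 CPM of oligodendrocyte markers against 2655 to 5456 CPM. The libraries of APP/E4/Trem2ko replicates 8 and 16 lay farthest from the gene means of all mice, with median absolute log2 deviations of 0.33 and 0.31. Results that rest on these libraries are given without them as well.

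The subunits spanned a wide range of levels (the plot of CPM per kb of exon). Per kb of exon the beta2 gene Gabrb2, with a median of 95.5 CPM, the obligatory NMDA subunit gene Grin1 at 92.8 and the kainate subunit gene Grik5 at 87.8 CPM per kb were the highest of the 27. Gabrb2 exceeded Grin1 in 47 of 88 mice, so these neighbours did not differ beyond their spread. Grin1 exceeded Grik5 in 62 mice and Grik5 exceeded Gria1 in 75 mice.

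Among AMPA subunits Gria1 was highest with a median of 71.8 CPM per kb, and it exceeded Gria2, the next in the order, in 87 of 88 mice. Not divided by exon length, Gria2 was the higher, with a median of 520 CPM against 415 CPM for Gria1. Gria2, whose edited protein keeps AMPA receptors impermeable to calcium, had 49.6 CPM per kb and Gria3 had 48.8, with Gria2 above Gria3 in only 46 mice. Gria4 was lower, at 16.6 CPM per kb. The alpha3 gene Gabra3 had 46.2 CPM per kb, and Gria3 was the higher of these neighbours in 60 of 88 mice. The delta subunit gene Gabrd had 36.8 CPM per kb, and Gabra3 exceeded it in 73 mice.

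The other NMDA subunit genes lay well below Grin1, with Grin2c near the middle of the order, above Grid1 in 62 of 88 mice. Per kb, Grin2a and Grin2b, which encode the main adult and the main early partner of the Grin1 product, had medians of 3.41 and 3.37 CPM, and Grin2a was the higher in 50 of 88 mice. The delta glutamate receptor gene Grid1 had 13.8 CPM per kb and the gamma1 gene Gabrg1 had 5.34. The lowest 3 of the 27 were Gabrb1 at 1.44, the gamma3 gene Gabrg3 at 0.653 and Grin3b at 0.359 CPM per kb.

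**Figure D1:**
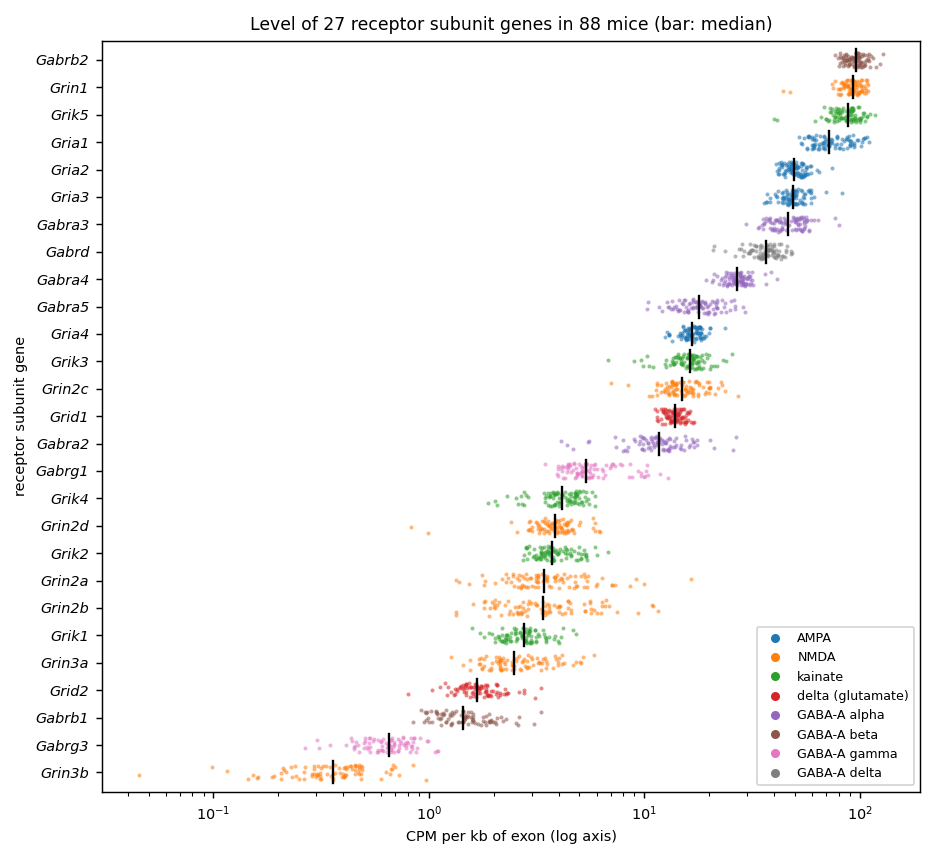
Level of each of the 27 subunit genes in each of the 88 mice, in CPM per kb of exon on a log axis (points, coloured by subfamily), with the median as a bar. Gabrb2, Grin1 and Grik5 sit at the top with medians of 87.8 to 95.5, and Grin3b at the bottom with 0.359, which also spans the widest range as a ratio, 0.0452 to 0.974.

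The genes also differed in how steady they were from mouse to mouse. The coefficient of variation of CPM over all mice was smallest for Grid1 (9.60%), Gabrb2 (10.7%) and Gria4 (10.9%). It was largest for Grin2a (53.9%), Grin2b (53.6%), Grin3b (43.3%), Grin3a (34.4%) and Gabrg1 (32.8%), so 4 of the 5 most variable subunits were NMDA subunits other than the obligatory one. Grin1 itself varied by 11.8%.

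The largest set of changes lay between APP/E4 and APP/E3 mice. A gene was called changed where the Benjamini-Hochberg adjusted p of limma's moderated test on log2(CPM + 0.5), over all genes tested, was under 0.05. By that rule 7 of 27 subunits were higher in APP/E4 (25.9%), while 10.9% of all genes tested were higher, and 0 subunits were lower, while 22.7% of all genes were lower. At an unadjusted p under 0.05 there were 8 subunits in either direction, against 5984 of the 14086 genes tested. On the recovered reads edgeR and DESeq2 each called 8, all higher, while 16.5% and 17.6% of all genes were higher. The 7 comprised 5 of 18 glutamate receptor subunits (Grin2b, Grin2a, Grin3a, Gria1 and Grid1) and 2 of 9 GABA-A subunits (Gabrb1 and Gabrb2). The median log2 fold change was 0.09 over the 27 subunits and -0.04 over all genes, and 19 of 27 were above 0. Scaling by TMM moved the split of all genes to 15.9% higher and 17.6% lower and raised the subunits' median to 0.14, with 8 called higher.

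NMDA partner subunits showed the largest differences, and Grin2a, Grin2b and Grin3a are named here because of their values. Grin2b, on chromosome 6 (135713233 to 136173511, GRCm38), had 62.2 CPM in the lowest, 123 in the median and 278 in the highest APP/E4 mouse, against 32.3, 74.2 and 154 CPM in APP/E3. The groups overlapped, with 11 of 14 APP/E4 mice above the APP/E3 median and 4 above its highest mouse. The fitted difference was 0.81 ± 0.23 on the log2 scale (SE), a 1.75-fold higher level, with an adjusted p of 0.00403 in limma. Grin2a, on chromosome 16 (9567898 to 9995560), had 12.2, 19.0 and 72.1 CPM as the lowest, median and highest in APP/E4, against 8.92, 12.4 and 31.1 CPM in APP/E3. In APP/E4, 13 of 14 mice lay above the APP/E3 median but only 3 above its highest, and the log2 difference was 0.58 ± 0.21 (limma adjusted p = 0.0276).

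The high values of these genes came together in a few mice. APP/E4 replicates 3, 8 and 13 had 278, 225 and 262 CPM of Grin2b and 43.8, 40.4 and 72.1 CPM of Grin2a, above every APP/E3 mouse for both genes. Leaving out any one of these mice, or APP/E3 replicate 11, took Grin2a to or past an adjusted p of 0.05 (up to 0.0892), while Grin2b stayed under 0.05 in each of the 88 fits that left out 1 mouse. In replicates 3 and 13 the deviations of all genes from their means also correlated with exon length (r = 0.48 and 0.43), and in replicate 8 less so (r = 0.35). APP/E4 replicate 10 had a like correlation (r = 0.44), with Grin2b and Grin2a (23.9 CPM) below the highest APP/E3 mouse. Grin2b has 24099 bases of exon.

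Grin3a, which encodes an NMDA subunit that lowers calcium entry, lies on chromosome 4 (49661611 to 49845744). Its levels were 16.3, 25.0 and 43.6 CPM in APP/E4 (lowest, median, highest), against 10.8, 18.2 and 26.5 CPM in APP/E3. It was 1.39-fold higher (log2 0.47 ± 0.16, limma adjusted p = 0.0135), with 12 of 14 APP/E4 mice above the APP/E3 median and 5 above its highest mouse. Grin1 differed by -0.01 ± 0.07 on the log2 scale (limma adjusted p = 0.915), with 347, 397 and 472 CPM in APP/E4 and 327, 405 and 466 CPM in APP/E3. Grin2c, Grin2d and Grin3b were not called, at log2 differences of 0.21, -0.07 and -0.02.

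Of the AMPA subunits limma on CPM called only Gria1. It lies on chromosome 11 (57011387 to 57330244) and had 395, 504 and 627 CPM in APP/E4, against 320, 393 and 570 CPM in APP/E3 (lowest, median, highest). All 14 APP/E4 mice exceeded the APP/E3 median, although only 2 exceeded its highest mouse, and the fold was 1.24 (log2 0.31 ± 0.09, limma adjusted p = 0.00496). Gria2, Gria3 and Gria4 differed by 0.09, 0.05 and -0.05 on the log2 scale and were not called in that fit. Gria2 was called higher by edgeR, by DESeq2 and in limma with TMM scaling (log2 at most 0.14). With length and GC content fitted out its sign turned (-0.14). No kainate subunit was called: Grik5 differed by 0.12 ± 0.09, and the lowest, Grik4, by -0.29 ± 0.12 (limma adjusted p = 0.0670). Grik4 was called lower with only the genotypes compared (limma adjusted p = 0.0245) and with the mean log2 level of the striatal markers as a covariate (0.0452). It was also called lower in 5 of the 88 fits that left out 1 mouse (limma adjusted p down to 0.0270). Grid1, on chromosome 14 (34820108 to 35583379), had 70.9, 84.6 and 97.4 CPM in APP/E4, against 68.0, 76.4 and 82.8 CPM in APP/E3. That was a 1.09-fold difference (log2 0.12 ± 0.05, limma adjusted p = 0.0432), and 17 of the 88 fits that left out 1 mouse, each an APP/E4 or APP/E3 mouse, took it to an adjusted p of 0.05 or more (up to 0.0861).

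The GABA-A calls were of Gabrb1 and Gabrb2, which encode beta subunits, and these take part in the GABA binding site together with alpha subunits. Gabrb1, on chromosome 5 (71658113 to 72149037), had 19.8, 25.7 and 45.4 CPM in APP/E4, against 13.3, 18.7 and 29.6 CPM in APP/E3 (lowest, median, highest). Its fold was 1.43 (log2 0.51 ± 0.13, limma adjusted p = 0.00154), the lowest adjusted p of the 27, and all 14 APP/E4 mice were above the APP/E3 median, 3 of them above its highest.

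Gabrb2, on chromosome 11 (42419757 to 42629028), had 318, 421 and 512 CPM in APP/E4, against 324, 373 and 431 CPM in APP/E3. The difference was 1.12-fold (log2 0.16 ± 0.05, limma adjusted p = 0.0146), with 11 of 14 APP/E4 mice above the APP/E3 median. The other 7 GABA-A subunits described here were not called. On the log2 scale Gabrd was at -0.16 ± 0.08 (limma adjusted p = 0.144) and Gabra4 at 0.11 ± 0.07 (0.181), and the rest ranged from -0.16 (Gabra2) to 0.19 (Gabrg3).

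**Figure D2:**
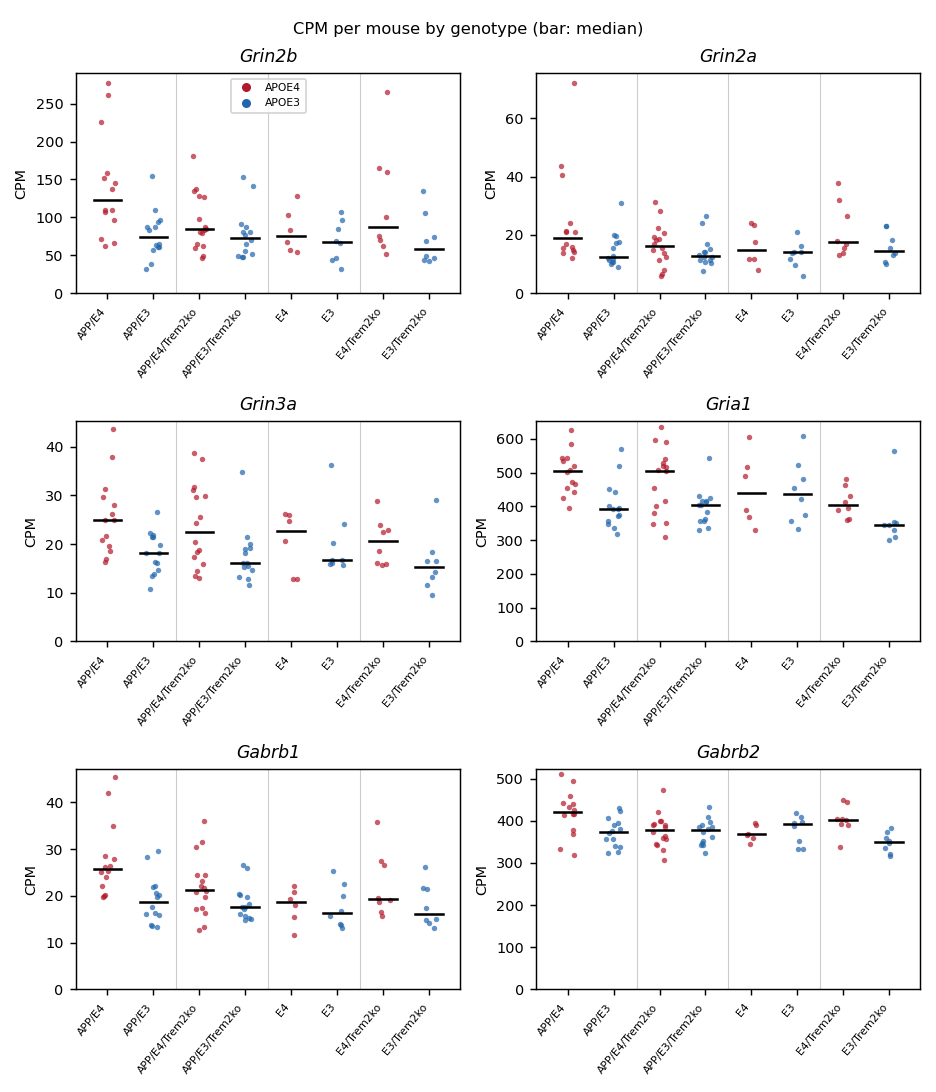
CPM of 6 of the subunit genes called between APP/E4 and APP/E3, 1 point per mouse, in the 8 genotypes (red APOE4, blue APOE3), with the median as a bar. APP/E4 is shifted up against APP/E3 in each panel, with medians of 25.7 and 18.7 CPM for Gabrb1 and of 421 and 373 CPM for Gabrb2, while Grin2b and Grin2a have a few very high mice in APP/E4.

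In bulk tissue fewer cells of a type and less RNA per cell cannot be told apart, so marker levels are given beside these changes. Over all genes, as above, 10.9% were higher and 22.7% lower. Of 10 cortical interneuron markers 0 were higher and 5 lower in APP/E4 than APP/E3, with a median log2 difference of -0.45, and their sum was 978 to 1726 CPM in APP/E4 and 1299 to 1954 CPM in APP/E3. Of 9 pan-neuronal markers 0 were higher and 3 lower (median -0.14), and of 10 excitatory cortical neuron markers 1 was higher and 0 lower (median -0.17). None of the 10 striatal markers was called. The part of cell make-up in the subunit values was not tested.

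Keratins and other genes of stratified epithelium, which cortex should lack, summed to 0.0354 to 79.1 CPM in APP/E4 and to 0 to 0.156 CPM in APP/E3. Libraries with at least 1 CPM were found only in APOE4 mice (10 of 14 APP/E4, 10 of 16 APP/E4/Trem2ko, 4 of 6 E4 and 7 of 8 E4/Trem2ko). Without those 31 libraries, 4 subunits stayed higher between the 4 remaining APP/E4 mice and APP/E3, namely Grin2b (log2 0.97), Grin2a (0.94), Grin3a (0.86) and Gabrb1 (0.77). Gria1 (0.34), Gabrb2 (0.14) and Grid1 (0.08) were then no longer called, at limma adjusted p of 0.0864, 0.235 and 0.484, and Grik4 was called lower (-0.54). Of all genes 4.56% were then higher and 11.4% lower. Without the libraries with at least 50 CPM of Alb, the serum albumin gene (3 of them APP/E4), Grin2a, Gabrb2 and Grid1 were not called, at limma adjusted p of 0.0649, 0.0738 and 0.112. Without those with at least 100 CPM of Ttr, the transthyretin gene of choroid plexus, Grin2a was not called (log2 0.45, limma adjusted p = 0.0850). Of the APP/E4 and APP/E3 mice this leaves out only APP/E4 replicate 13, whose removal alone also ended the Grin2a call.

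Transcript length moved with this comparison over the whole table. Across the 13894 genes with a length, the log2 difference between APP/E4 and APP/E3 had a Spearman correlation of 0.55 with exon length, genes not being independent of each other. The subunits have long transcripts, with a median of 5431 bases of exon against 3223.5 over all genes, and 92.6% of them lie above that median. With length and GC content fitted out of each library, 6 subunits were higher and 1 lower in APP/E4 than APP/E3, against 11.4% higher and 11.3% lower over all genes in that fit. Of the 7 described above 4 were still called. Those were Grin2a (log2 0.57), Grin2b (0.53), Gabrb1 (0.27) and Gria1 (0.24), so the differences of Grin2b and Gabrb1 were smaller by over 1.5 times. Grik5 (0.20) and Grin2c (0.24) were then called higher and Gria4 (-0.16) lower, while Gabrb2, Grid1 and Grin3a (0.36, limma adjusted p = 0.0545) were not called. The part of length in the remaining differences was not tested.

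**Figure D3:**
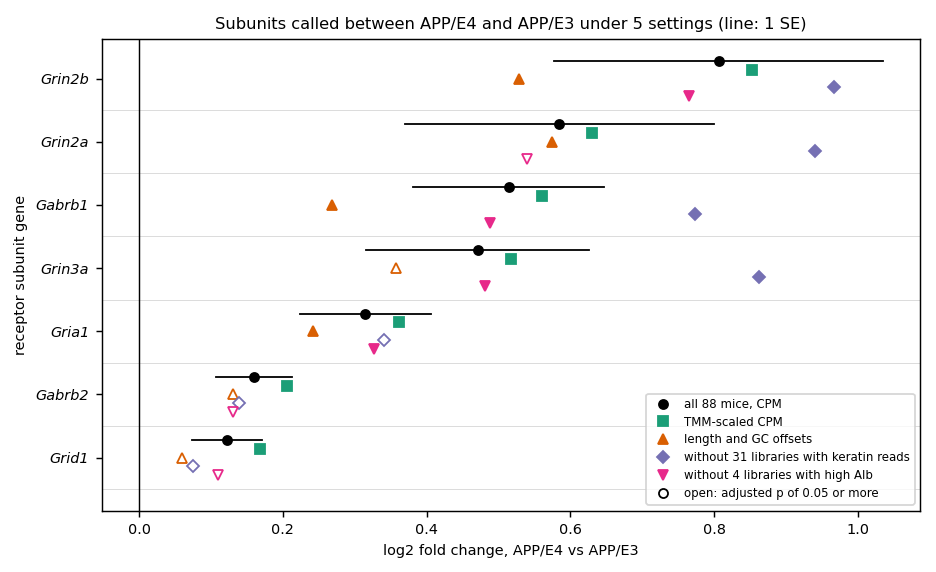
Log2 fold change, APP/E4 vs APP/E3, of the 7 subunits called, under 5 settings (colour and shape), with the standard error of the fit on all mice as a line. Filled symbols had an adjusted p under 0.05, and Grin2b and Gabrb1 are filled in every setting shown, while Gabrb2 and Grid1 are open in 3.

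The same APOE comparison in the other backgrounds gave fewer calls. In Trem2ko mice with the APP transgenes, APP/E4/Trem2ko vs APP/E3/Trem2ko, limma called 0 of 27 subunits and 4.46% of all genes. There were 3 subunits at an unadjusted p under 0.05, against 2725 of all 14086 genes, and 0 called by edgeR or DESeq2. The median of the subunits was 0.06, and the lowest adjusted p in limma was 0.107 for Gria1, which had 310, 506 and 636 CPM in APP/E4/Trem2ko, against 330, 404 and 543 CPM in APP/E3/Trem2ko. Gria1 (log2 0.24) and Grin3a (0.38) each passed when 1 mouse was left out, APP/E4/Trem2ko replicate 5 for Gria1 (limma adjusted p = 0.0338) and APP/E3/Trem2ko replicate 5 for Grin3a (0.0451). Grin2b differed by 0.26 ± 0.22 and Gabrb1 by 0.21 ± 0.13.

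Without amyloid transgenes, E4 vs E3, limma again called 0 of 27 subunits, while 7.72% of all genes were called. There were 3 subunits at an unadjusted p under 0.05, against 3096 of all 14086 genes, and 0 called by edgeR or DESeq2. The median was -0.00, with 13 of 27 above 0. The 7 subunits called in the APP mice were at -0.02 (Gabrb2) to 0.28 (Grin2b, ± 0.33) here. The lowest adjusted p was 0.0679 for Gria3, with 197, 237 and 258 CPM in E4, against 250, 279 and 315 CPM in E3 (log2 -0.29), and it passed when either APP/E4/Trem2ko replicate 8 or replicate 16 was left out (limma adjusted p as low as 0.0407).

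In E4/Trem2ko vs E3/Trem2ko, 1 of 27 subunits was higher (3.70%), while 1.53% of all genes were higher. It was Gabra4, the alpha4 gene whose product pairs with the delta subunit outside synapses, with 103, 115 and 125 CPM in E4/Trem2ko, against 79.8, 94.3 and 110 CPM in E3/Trem2ko. All 8 E4/Trem2ko mice exceeded the E3/Trem2ko median and 5 exceeded its highest mouse, at a fold of 1.20 (log2 0.27 ± 0.09, limma adjusted p = 0.0460). It lost the call in 11 of the 88 fits that left out 1 mouse (adjusted p up to 0.129), and without E3/Trem2ko replicate 1 Gabra3 was called too (log2 0.38, limma adjusted p = 0.0321). The subunits' median was 0.12 and that of all genes -0.05, with Grin2b at 0.65 ± 0.30 (adjusted p = 0.179).

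Whether the APOE difference itself changed with Trem2 or with the transgenes was tested by interaction terms. In APP mice the APOE by Trem2 term called 0 of 27 subunits and 0.369% of all genes, and in mice without the transgenes 0 of 27 and 0.0142%. The APOE by APP term called 0 of 27 in Trem2 wild-type mice and 0 of 27 in Trem2ko mice, with 0% of all genes called in each. Subunits at an unadjusted p under 0.05 numbered 2, 4, 4 and 1 in these 4 tests, against 2180, 954, 856 and 1415 of all 14086 genes. edgeR and DESeq2 called 0 subunits in each. So the 7 calls in APP mice with Trem2 are not shown to differ from the values in the other backgrounds. For Grin2b the APOE by Trem2 term in APP mice was -0.55 ± 0.32 (limma adjusted p = 0.408), and for Gabrb2 -0.15 ± 0.07 (0.314).

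By limma the Trem2 comparisons called at most 1 subunit each, and not the same one. In APP/E4/Trem2ko vs APP/E4, 1 of 27 was lower (3.70%), near the 2.53% of all genes that were lower. Gabrb2 had 306, 379 and 474 CPM in APP/E4/Trem2ko, against 318, 421 and 512 CPM in APP/E4, and 2 of 16 APP/E4/Trem2ko mice lay above the APP/E4 median. The fold was 0.905 (log2 -0.14 ± 0.05, limma adjusted p = 0.0495), and 59 of the 88 fits that left out 1 mouse took it past the threshold (adjusted p up to 0.133). The subunits' median was -0.08 and that of all genes 0.04, with 5 of 27 above 0. These APP/E4 mice are the ones that also enter the APOE comparison, so both sets of values rest on the same libraries. Grin2b (-0.53 ± 0.22), Grin2a (-0.50 ± 0.21) and Gabrb1 (-0.33 ± 0.13) were at limma adjusted p of 0.0946, 0.0951 and 0.0689. Without APP/E4/Trem2ko replicate 9 the count was 4, and without APP/E4 replicate 12 it was 2. Without the libraries with keratin reads Gabrb2 was not called (log2 -0.07, limma adjusted p = 0.685), and Grik5 (-0.48) and Grin2d (-0.79) were called lower. The log2 difference correlated with exon length over all genes here too, at a Spearman correlation of -0.51.

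In mice without the transgenes, E3/Trem2ko vs E3, 1 of 27 subunits was lower and 1.65% of all genes were lower. Gabra3, the alpha3 gene on the X chromosome (72432681 to 72656848), had 109, 130 and 208 CPM in E3/Trem2ko, against 146, 187 and 206 CPM in E3, and 7 of 8 E3/Trem2ko mice lay below the lowest E3 mouse. The exception was E3/Trem2ko replicate 1 at 208 CPM. The fold was 0.754 (log2 -0.41 ± 0.12, limma adjusted p = 0.0418), and the call was lost in 11 of the 88 fits that left out 1 mouse (up to 0.108). Without E3 replicate 4 or replicate 6, which also stood apart for single subunits, 0 subunits were called, with Gabra3 at limma adjusted p of 0.0803 and 0.0766. It was not called by edgeR (adjusted p = 0.0582) or with the striatal covariate in limma (0.0509). Without E3/Trem2ko replicate 1 there were 3 subunits lower, Gabra3 (-0.49), Gria1 (-0.38) and Gabra4 (-0.30), with limma adjusted p of 0.0102, 0.0383 and 0.0294. Gabra4 also passed without 1 other mouse of E3 or E3/Trem2ko (replicate 8 of each) or without APP/E4/Trem2ko replicate 8 or 16.

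The other Trem2 comparisons called none. For APP/E3/Trem2ko vs APP/E3 it was 0 of 27 subunits and 0.319% of all genes by limma. At an unadjusted p under 0.05 there were 0 subunits and 783 of all 14086 genes. For E4/Trem2ko vs E4 it was 0 of 27 and 0.0994%, with 1 subunit (Gria4) and 911 of all 14086 genes at an unadjusted p under 0.05. edgeR and DESeq2 called 0 in both. The subunits' medians were -0.03 and 0.05.

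For the amyloid transgenes no subunit was called, and hardly any gene. Limma called 0 of 27 subunits in APP/E3 vs E3 (0.0213% of all genes), 0 of 27 in APP/E4 vs E4 (0.0142%), 0 of 27 in APP/E3/Trem2ko vs E3/Trem2ko (0.149%) and 0 of 27 in APP/E4/Trem2ko vs E4/Trem2ko (0.0781%). At an unadjusted p under 0.05 there were 3, 5, 2 and 0 subunits, against 844, 1309, 2354 and 2606 of all 14086 genes. edgeR and DESeq2 called 0 subunits in each. The lowest adjusted p in APP/E4 vs E4 was 0.324 for Gabrb1, with 19.8, 25.7 and 45.4 CPM in APP/E4, against 11.6, 18.6 and 22.1 CPM in E4 (log2 0.61 ± 0.17). Grin2b was at 0.72 ± 0.30 and Gabrb2 at 0.16 ± 0.07 in that comparison. Between females and males limma called 0 of 27 subunits and 0.135% of all genes, and edgeR and DESeq2 called 0 subunits. At an unadjusted p under 0.05 there were 1 subunit (Gria4, log2 0.08) and 776 of all 14086 genes.

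**Figure D4:**
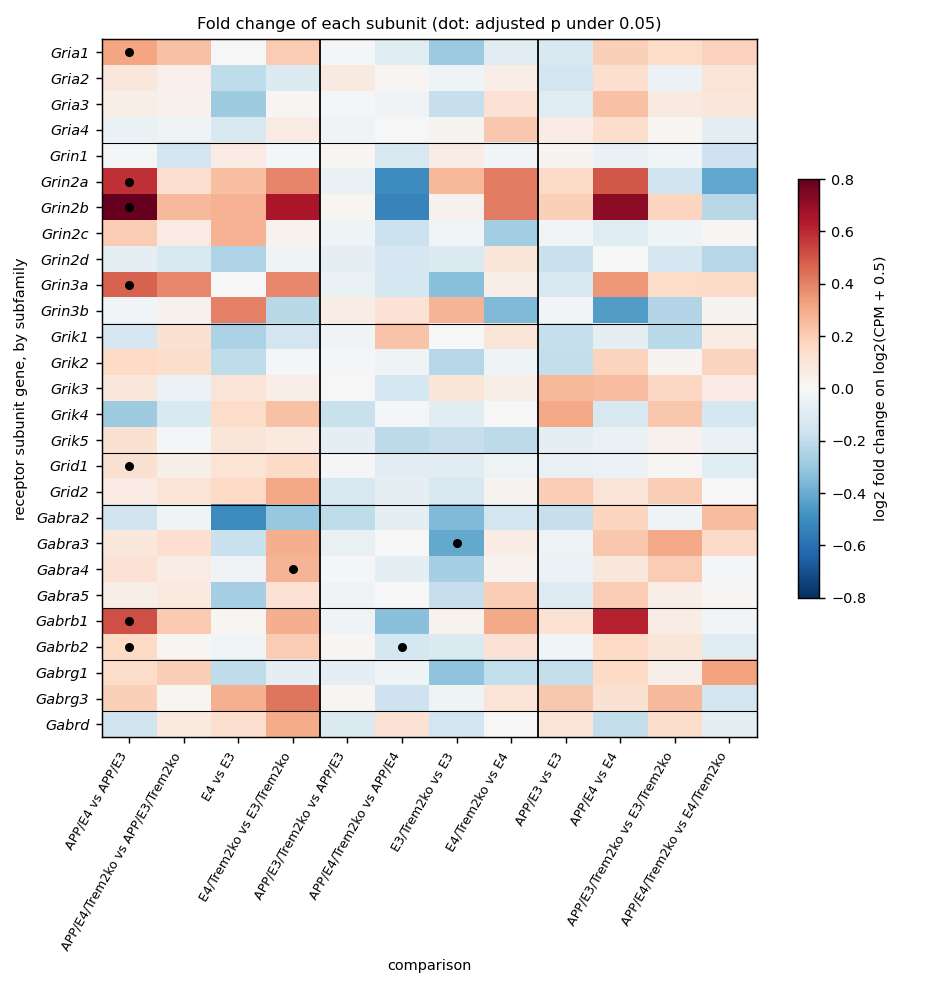
Log2 fold change of each subunit (lines, by subfamily) in the 12 comparisons of 2 genotypes (columns: APOE, Trem2 and APP comparisons), from blue (lower) to red (higher), with a dot at an adjusted p under 0.05. Of the 10 dots, 7 stand in the APP/E4 vs APP/E3 column and 3 mark Gabra4, Gabrb2 and Gabra3.

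Over the 8 genotypes the abundant subunits stayed within narrow bands. Median levels ran from 390 CPM (APP/E4/Trem2ko) to 417 CPM (E4) for Grin1, from 349.8 CPM (E3/Trem2ko) to 421 CPM (APP/E4) for Gabrb2, and from 290 CPM (E3/Trem2ko) to 361 CPM (APP/E4) for Grik5. Gria1 had a wider band, from 346 CPM in E3/Trem2ko to 506 CPM in APP/E4/Trem2ko, and its mice overlapped between those genotypes (310 to 636 CPM in APP/E4/Trem2ko, 301 to 563 CPM in E3/Trem2ko). Gabrd ran from 62.2 CPM (E3/Trem2ko) to 76.6 CPM (E4/Trem2ko). In none of the 324 combinations of a subunit and a comparison of 2 genotypes were the 2 groups free of overlap. How often this holds over all genes was not counted, so it is not shown to be a trait of these subunits. APP/E4/Trem2ko replicates 8 and 16 held the 2 lowest Grin1 values of all mice, 207 and 193 CPM, and the 2 lowest Grin2d values, 4.51 and 5.36 CPM.

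Ratios between partner subunits were compared within each mouse, which takes out any factor common to both genes. A length effect need not be common to both. Gria1 has 5786 and Gria2 10486 bases of exon, and Grin2a has 4395 and Grin2b 24099. The part of length in the ratios was not tested. Of 24 tests (2 ratios in 12 comparisons, permutation of genotype labels, exact where the groups allowed it) 0 passed after Benjamini-Hochberg adjustment over the 24, while 5 of Gria1/Gria2 and 1 of Grin2a/Grin2b had an unadjusted p under 0.05. The nearest, both of Gria1/Gria2, were tied at an adjusted p of 0.127. In CPM, not per kb, the Gria1/Gria2 ratio was 0.753, 0.942 and 1.34 in APP/E4 (lowest, median, highest), against 0.716, 0.747 and 1.06 in APP/E3, a mean log2 difference of 0.22 (permutation p = 0.00752). It was 0.678, 0.842 and 0.905 in E4/Trem2ko, against 0.540, 0.632 and 0.903 in E3/Trem2ko, a difference of 0.31 (exact permutation p = 0.0106). Per kb of exon the medians were 1.71 in APP/E4 and 1.35 in APP/E3.

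The Grin2a/Grin2b ratio, whose rise marks the maturation of NMDA receptors after birth, stayed between 0.0940 and 0.358 in all mice, again in CPM and not per kb. Its median was 0.157 in APP/E4 and 0.196 in APP/E3, a mean log2 difference of -0.21 (permutation p = 0.109, adjusted p = 0.361). The lowest p of this ratio was 0.0191 (APP/E3/Trem2ko vs E3/Trem2ko, log2 -0.34, adjusted p = 0.153). So the higher levels of both genes in APP/E4 went with no detectable change in their proportion in CPM, from which length effects were not taken out.

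Subunits also varied together from mouse to mouse within genotypes. Deviations from the genotype and sex means were correlated over the 88 mice for all 351 pairs, and 141 pairs passed a permutation test within genotype and sex after adjustment over the 351, 99 with a positive and 42 with a negative Pearson's r. The median r was only 0.11, and 10 pairs were above 0.7. The strongest links joined the subunits called in APP/E4: Gabrb1 with Grin2a (r = 0.85, Spearman's rho = 0.82), Grin2a with Grin2b (0.84 and 0.84), Gabrb1 with Grin2b (0.81 and 0.78) and Gria1 with Grin3a (0.77 and 0.73). Each had a permutation p of 1e-05, the smallest that 100000 permutations can give (adjusted p = 0.00013). Grik2 was linked to both Grin3a (0.73 and 0.74) and Gabrg1 (0.73 and 0.68).

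Without the 2 mice farthest from the median the first 4 of these pairs kept r between 0.73 and 0.86. With length and GC content fitted out they kept 0.71, 0.76, 0.68 and 0.71 in the order just given, and without the libraries with keratin reads 0.78 to 0.87. The most negative pair was Gabra3 with Grin3b (r = -0.64), beside Gria4 with Grik5 (-0.64), which weakened to -0.33 with length and GC fitted out. Grik5 with Grin2d had r = 0.65 over all mice but 0.29 without 2 mice, so that relation rests on them. All these points share library composition, length effects and the piece of cortex taken, and the part of each was not tested.

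**Figure D5:**
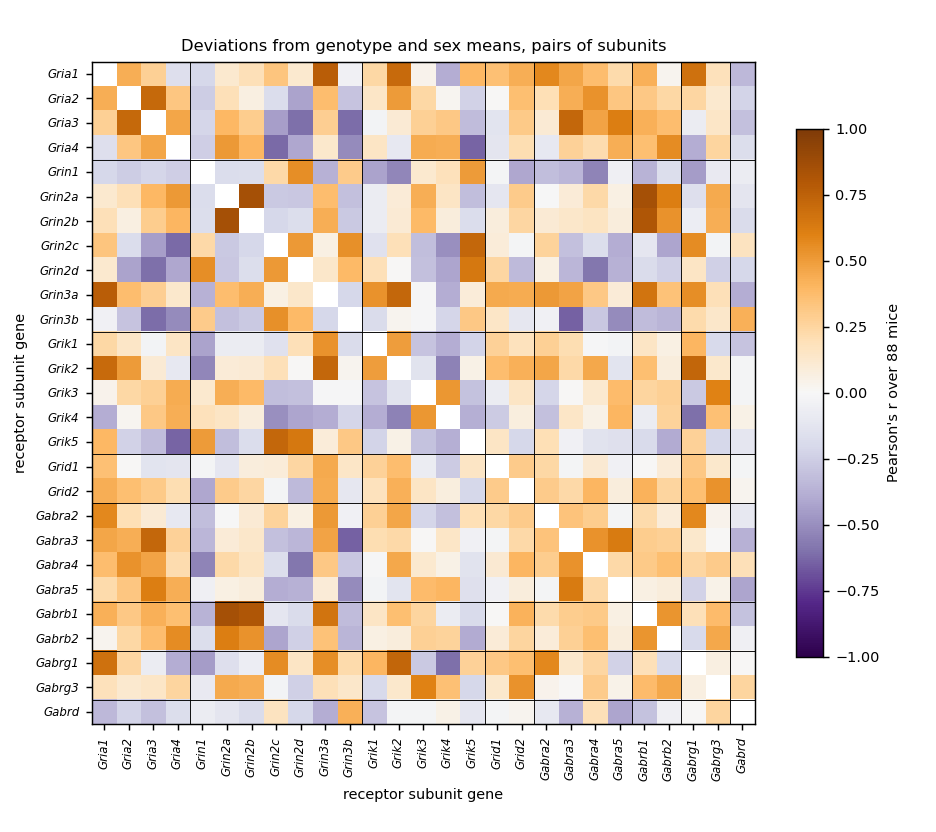
Pearson's r between the 27 subunits over 88 mice, computed on deviations of log2(CPM + 0.5) from the genotype and sex means, from purple (negative) to brown (positive). The darkest cells join Gabrb1 with Grin2a and Grin2b (0.85 and 0.81), Grin2a with Grin2b (0.84) and Gria1 with Grin3a (0.77).

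Genes that work with these receptors are given for APP/E4 vs APP/E3, where 10.9% of all genes were higher and 22.7% lower. Of 16 AMPA receptor auxiliary genes 2 were higher and 1 lower (median log2 0.06). Cacng8 (0.42) and Cnih3 (0.42), which encode auxiliary proteins that slow AMPA channel closing, were higher at limma adjusted p of 0.00960 and 0.0142, and Cacng7 (-0.43), of the same family as Cacng8, was lower (9.93e-06). With length and GC content fitted out 4 of the 16 were higher and 1 lower, and without the libraries with keratin reads 1 was higher and 1 lower. Of 9 kainate and NMDA receptor auxiliary genes 1 was higher and 0 lower, the kainate receptor auxiliary gene Neto2 (0.28, limma adjusted p = 0.00452), and without the libraries with keratin reads 0 of the 9 were called.

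Of 22 scaffold genes of excitatory synapses 5 were higher and 3 lower (median 0.07), with 2 higher and 2 lower once length and GC content were fitted out, and 1 higher and 0 lower without the libraries with keratin reads. Nlgn1, an adhesion protein of excitatory synapses, was at 0.35 (limma adjusted p = 0.000101) and Dlg1, a scaffold of the PSD-95 family, at 0.13 (0.0104), while Homer3 was at -0.52 (0.00176) and Pick1, which binds AMPA receptor tails, at -0.20 (0.00467). Of 12 GABA-A scaffold and auxiliary genes 0 were higher and 4 lower (median -0.04), with 1 higher and 3 lower and with 0 higher and 1 lower under the same 2 settings. Slc12a5, the neuronal chloride exporter, was at -0.19 (limma adjusted p = 0.00105) and Gphn, which encodes the inhibitory synapse scaffold gephyrin, at -0.17 (0.00920), with Gabarapl1 at -0.18 (0.00148) and Gabarapl2 at -0.33 (0.00252).

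Of 9 metabotropic glutamate and GABA-B receptor genes 2 were higher, Grm5 (0.33, limma adjusted p = 0.00420) and Gabbr1 (0.11, 0.0213), and 0 lower, and under either of those settings 0 of the 9 were called. Of 14 genes for transmitter synthesis and transport, the one nearest to a call was the astrocyte glutamate transporter gene Slc1a3 (-0.21, limma adjusted p = 0.0502). Apoe itself lies on chromosome 7 with 4 of the 27 subunits, Grik5 at 5.31 Mb, Grin2d at 26.1 Mb and Gabrg3 and Gabra5 at 37.0 and 37.7 Mb from it. In the main limma fit 0 of these 4 were called between APP/E4 and APP/E3. Grik5 was called higher once length and GC content were fitted out (log2 0.20). For Grik5, 8 of 14 APP/E4 mice lay above the highest APP/E3 mouse.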

How the data were processed

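RNA of 88 mouse cortices was measured as mRNA-seq, 1 library per mouse, and groups were taken from the genotype labels. The authors aligned reads to mm10 with Subread, counted them per gene with featureCounts and deposited CPM per gene and mouse. The annotation they counted on and the strand setting are not given in the sources used here. The study's methods account for a bias between sequencing batches, but the labels used here give no batch, so it was not corrected and its part in the values was not tested. The table had 14497 entries, and 46 repeated entries were removed, leaving 14451 genes, of which 14086 with a mean of at least 1 CPM were tested. Every value was a whole multiple of 1 read within 0.01 (100% of values in every library), so read counts were recovered from the deposited CPM for the count tests. 1 read was worth 0.0105 to 0.0242 CPM.

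log2(CPM + 0.5) was fitted over all 88 mice with genotype and sex as terms in limma 3.58.1 (trend and robust moderation, R 4.3.3), with Benjamini-Hochberg adjustment over all genes tested, so each fold change is on the log2(CPM + 0.5) scale and is understated for low genes. The study tested read counts, but the deposited values are CPM, so edgeR 4.0.16 and DESeq2 1.42.0 on the recovered reads served as alternatives. On simulated data for APP/E4 vs APP/E3 over 14086 genes, 100% of genes changed 1.5-fold were recovered. The share was 74% of those changed 1.25-fold and 68% of those changed 0.8-fold. The simulation gave every gene the same spread and held no length, GC or tissue effects. Within genotypes the coefficient of variation was 35.3% to 61.5% for Grin2b and 31.8% to 67.2% for Grin2a, so these shares need not hold for the most variable subunits. Ratios and pairs of subunits were tested with permutations (100000 draws, or exact) in scipy 1.17.1. Exon lengths, GC content and positions came from GENCODE vM21 (GRCm38), as the union of exons of transcripts matched to RefSeq, and promoter sequences from RefSeq on GRCm38.p6.

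Alternatives were TMM scaling, pseudocounts of 0.1 and 1, no filter on low values, no sex term, only the genotypes compared, offsets from a loess of each library's deviations on length and GC (span 0.3), leaving out libraries with at least 1 CPM of keratins, 100 CPM of Ttr or 50 CPM of Alb, a striatal marker covariate, and leaving out each mouse. The subunits and gene lists were chosen with earlier results of these data known, so none of the counts is independent evidence of a pattern already seen. Subunits named were those called in 2 or more APOE comparisons (none) or in any Trem2, APP, sex or interaction test, and the highest per kb in each subfamily of those described. Some genes that the names or lists match are not reported here. From each related list up to 4 genes with the smallest p between APP/E4 and APP/E3 were named. Other subunits were named after their values were seen.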

Additional observations from a re-analysis of the deposited data

Results flagged for a closer look

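Single mice stood far from the rest of their group for 12 of 108 combinations of a subunit and a genotype of 6 to 8 mice, by Dixon's test of the gap to the nearest mouse. Chance gives about 5% of such combinations. In 9 of the 12 the mouse was E3/Trem2ko replicate 1, whose marker levels are given in the report. Its values were the highest of the group for Gria1 (563 CPM, next 353), Grik5 (407 CPM, next 310), Gabra3 (208 CPM, next 141) and Gabra2 (151 CPM, next 71.0). They were also the highest for Grik2 (48.4 CPM, next 37.9), Gabrg1 (45.9 CPM, next 25.4) and Grin3a (29.1 CPM, next 18.4), and the lowest for Gabrd (39.9 CPM, next 59.3) and Grik4 (12.2 CPM, next 21.1). In the E3 group replicate 6 was lowest for Gabrd (40.3 CPM, next 67.7) and highest for Grin3a (36.2 CPM, next 24.1). Its summed markers also stood apart, with 759 CPM of oligodendrocyte markers against 1354 to 3688 CPM in the other 7, 3664 CPM of excitatory neuron markers against 4149 to 5874 CPM, and 6862 CPM of pan-neuronal markers against 7454 to 9370 CPM. In the same group replicate 4 was highest for Grin1 (465 CPM, next 408). Whether the piece of tissue taken accounts for these values was not tested.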

How the results depend on the processing

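Under every alternative and in each of the 88 fits that left out 1 mouse, no subunit called in the main limma fit changed sign. Gabrb1 and Grin2b stayed called between APP/E4 and APP/E3 throughout, with log2 differences of 0.27 to 0.77 and 0.53 to 0.97 over the alternatives. Counts of subunits called that left the range of 1.5 times are as follows. For APP/E4 vs APP/E3 (7) the count was 4, all higher, without libraries with high Alb, where 9.09% of all genes were higher. For APP/E4/Trem2ko vs APP/E3/Trem2ko (0) it was 2, both lower (Grin1 and Grin2d), without libraries with keratin reads, where 3.68% of all genes were lower. The 6 APP/E4/Trem2ko mice left there include replicates 8 and 16, which held the 2 lowest values of both genes. In the fit on all mice but these 2, neither gene was called. For E4 vs E3 (0) it was 1 (Gria3, lower) with only the genotypes compared, where 2.21% of all genes were lower. For E4/Trem2ko vs E3/Trem2ko (1) it was 3 with edgeR, 3 with DESeq2, 4 with TMM and 3 with length and GC offsets, all higher. Of all genes 2.76%, 3.20%, 2.85% and 3.43% were higher in these fits. It was 2 without high Ttr and 0 without high Alb, where 1.88% and 0.682% of all genes were higher. The fit without keratin reads leaves 1 E4/Trem2ko mouse, which is assumed to vary like the other groups. The subunits' median log2 difference was 0.16 there. For APP/E4/Trem2ko vs APP/E4 (1) it was 3 with edgeR, 4 with DESeq2, 2 with TMM and 2 without keratin reads (Grik5 and Grin2d, with Gabrb2 lost), all lower. Of all genes 4.56%, 5.65%, 4.61% and 2.66% were lower in these fits. It was 0 with no filter, with only the genotypes compared, without high Ttr or without high Alb. There 2.43%, 0.121%, 0.248% and 1.18% of all genes were lower. For E3/Trem2ko vs E3 (1) it was 2 with offsets or without high Ttr. It was 0 with edgeR (1.45% of all genes lower), with only the genotypes compared, without keratin reads or with the striatal covariate.

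Chosen after seeing the data, leaving out the 2 libraries farthest from the gene means gave 1 (E4 vs E3), 2 (E4/Trem2ko vs E3/Trem2ko), 2 (APP/E4/Trem2ko vs APP/E4) and 2 (E3/Trem2ko vs E3), and leaving out 6 gave 1, 2, 0 and 2, with Grin2a lost between APP/E4 and APP/E3 (log2 0.41, limma adjusted p = 0.128). Leaving out 1 mouse at a time gave 5 to 8 for APP/E4 vs APP/E3, 0 to 1 for APP/E4/Trem2ko vs APP/E3/Trem2ko and for E4 vs E3, 0 to 2 for E4/Trem2ko vs E3/Trem2ko, 0 to 4 for APP/E4/Trem2ko vs APP/E4 and 0 to 3 for E3/Trem2ko vs E3. The cause of these changes was not tested. No subunit ratio passed under any setting, the lowest adjusted permutation p being 0.104 with medians. No paired analysis was possible because the labels give no replicate numbers that link mice of different genotypes. The p-values measure the spread between single mice, and with 6 to 8 mice in the non-APP genotypes small differences could be missed.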
